A study of Mus musculus with 4 samples.

Results

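The genes described here are 9 components of the Hedgehog signaling pathway: *Ihh*, *Ptch1*, *Gas1*, *Hhip*, *Smo*, *Sufu*, *Gli1*, *Gli2* and *Gli3*. They were chosen by symbol. All 9 were found among the 45802 symbols of the expression table, and each had a value in all 4 libraries, as did 14415 symbols in the whole table. The libraries hold bulk total RNA of mouse periosteal cells, 2 from PDGFRα reporter+ cells and 2 from PDGFRα reporter- cells. The question was how the transcriptomes of the 2 populations differ. All cells came from the femurs and tibias of Pdgfrα-mTmG males aged 9 to 10 weeks. These mice carry a tamoxifen-activated Cre (CreER) driven by the *Pdgfra* promoter and a membrane reporter that switches from tdTomato to GFP after recombination. Every animal was given a daily dose of tamoxifen (150 mg/kg) on 5 days, and tissue was collected 14 days later. Cells were expanded for 1 passage with bFGF at 10 ng/mL, depleted of CD31-, CD45- and Ter119-positive cells, and sorted as GFP-positive (reporter+) or tdTomato-positive (reporter-). According to the labels, 3 to 6 mice were pooled for each cell population, so a library is not an individual animal. Reporter- cells are cells in which the reporter had not recombined, which is not the same as cells without *Pdgfra*.

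The table gives log2 signals after quantile normalization. The libraries carry the number 2 or 3 in the table and are called library 2 or library 3 of their population. A difference between populations is the mean of the reporter+ libraries minus the mean of the reporter- libraries on the log2 scale, with a standard error (SE), a 95% interval and a p-value from limma. P-values were adjusted over the 14415 genes. The labels do not say whether the libraries of a population came from separate cultures. The p-values therefore measure only the spread between these libraries, which may be technical. The fit does not separate the library numbers, so this spread includes the difference between libraries 2 and 3. That difference was partly shared by the populations (correlation of deviations across genes 0.681), which widens the intervals. The linear unit under the logarithm is not stated to be corrected for transcript length, so signals of different genes are not compared as expression levels. For orientation, the percentile of a value among all values listed in its library is given. It places the signal only and carries the same limit.

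Hedgehog signaling is a ligand-driven pathway that runs through the primary cilium. Without ligand, the receptor Patched (*Ptch1*) keeps Smoothened (*Smo*) inactive, and the transcription factors GLI2 and GLI3 are retained by SUFU and partly processed into repressors. Ligand binding, which GAS1, CDON and BOC assist and HHIP competes with, frees Smoothened, and GLI activators then switch on target genes that include *Gli1*, *Ptch1* and *Hhip* themselves. In growing bone, Indian hedgehog (*Ihh*) is made by prehypertrophic chondrocytes and acts on the surrounding perichondrium and periosteum, and *Gli1* marks skeletal progenitors.

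The sequences next to 3 members are shown because of how these genes differed between the libraries. Of the 9 members, *Hhip* and *Gli2* differed most between libraries 2 and 3, and *Ptch1*, a target like *Hhip*, differed least. Each is the 250 bases before the gene start that RefSeq lists on GRCm38.p6, on the strand of the gene, with CpG dinucleotides in capitals. The *Hhip* window is chr8:80058009-80058258 (minus strand), the *Gli2* window is chr1:119053620-119053869 (minus strand), and the *Ptch1* window is chr13:63565736-63565985 (minus strand). The *Ptch1* start that RefSeq lists lies inside the longer span that GENCODE gives the gene.
Hhip: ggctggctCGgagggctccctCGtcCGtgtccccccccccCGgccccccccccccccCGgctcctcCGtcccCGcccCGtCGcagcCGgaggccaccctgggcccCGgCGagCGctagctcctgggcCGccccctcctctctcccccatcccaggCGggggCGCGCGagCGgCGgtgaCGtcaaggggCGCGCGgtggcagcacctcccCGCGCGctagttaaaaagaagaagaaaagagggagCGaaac
Gli2: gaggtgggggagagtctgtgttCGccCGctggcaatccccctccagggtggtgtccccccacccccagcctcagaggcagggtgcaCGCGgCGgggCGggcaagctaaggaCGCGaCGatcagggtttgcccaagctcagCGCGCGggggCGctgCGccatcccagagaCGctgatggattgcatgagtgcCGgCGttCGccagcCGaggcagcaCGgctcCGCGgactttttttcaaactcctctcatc
Ptch1: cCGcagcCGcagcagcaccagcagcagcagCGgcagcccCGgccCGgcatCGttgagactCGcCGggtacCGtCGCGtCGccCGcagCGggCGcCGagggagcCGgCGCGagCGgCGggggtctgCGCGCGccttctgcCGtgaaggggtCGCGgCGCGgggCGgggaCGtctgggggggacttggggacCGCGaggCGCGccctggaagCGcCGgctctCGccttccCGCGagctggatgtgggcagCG
These windows held 28 CpG for *Hhip*, 22 for *Gli2* and 41 for *Ptch1*, compared with a median of 6 over the 32851 promoters in the table. Of the 9 members, 8 were matched to the table by symbol, all except *Gli1*. The 9-letter GLI core motif GACCACCCA, searched on both strands with at most 1 mismatch, was in none of the 8 windows and in 5.79% of all promoters. Exact copies were in 0.225% of promoters.

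Marker genes of several cell types were compared between the populations, which does not check the reporter labels themselves. *Pdgfra* itself had log2 signals of 7.78 and 7.62 in the reporter+ libraries and of 7.87 and 7.44 in the reporter- libraries, so its transcript did not separate the populations. *Col1a1*, *Col1a2* and *Prrx1*, genes of periosteal fibroblasts, were listed in all libraries. All 12 macrophage markers had a value in every library despite the CD45 depletion, and all 12 had higher means in reporter+ cells (median difference 1.00). Their summed signal was 7.92 and 8.16 in the reporter+ libraries and 6.59 and 7.51 in the reporter- libraries on the log2 scale. *Lyz2* made up most of this sum (7.65 and 7.88 in reporter+, 6.27 and 7.25 in reporter- libraries 2 and 3). Of 7 endothelial markers with values throughout, 6 had lower means in reporter+ cells (median −1.82), with a summed signal of 1.40 to 1.68 against 1.67 to 2.66. *Egfl7* was the largest part of this sum (1.22 and 1.00 in reporter+, 1.01 and 1.29 in reporter- libraries 2 and 3). Sums over a marker list are weighted to genes with high signal and do not measure the share of a cell type. Smooth muscle markers were lower in all 6 cases (median −1.64). Across genes, library 2 of one population resembled library 2 of the other (r = 0.984), as did the libraries numbered 3 (r = 0.982), more than libraries of one population resembled each other (0.952 and 0.957).

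None of the 9 Hedgehog genes passed the test for a difference between the populations. Their median difference was −0.05, beside −0.00355 over all genes tested, with means lower in reporter+ cells for 7 genes and higher for 2. Leaving out 1 library moved this median to between −0.43 and 0.17, with a sign above 0 without reporter+ library 2 or reporter- library 3. No member had an adjusted p under 0.05 with limma, and each adjusted p was 1. That was also the case for all genes (0%), and 0 members had an unadjusted p under 0.05, compared with 0.909% of all genes. The reporter+ libraries lay both below the reporter- libraries for 1 member (*Gli1*), beside 8.10% of all genes, and both above for 1 member (*Ptch1*), beside 7.59%. In bulk RNA, fewer cells that express a gene and less of its RNA per cell cannot be told apart.

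**Figure D1:**
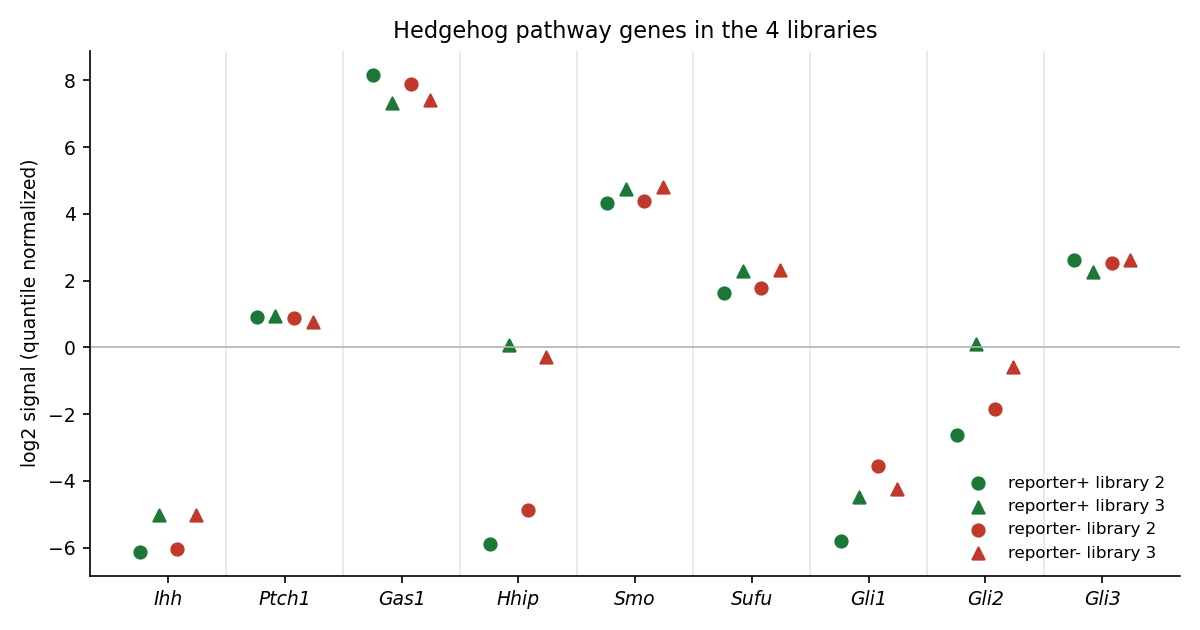
Log2 signal (vertical axis, quantile normalized) of the 9 Hedgehog genes in each library. Green points are reporter+ and red points reporter- libraries, circles library 2 and triangles library 3. *Gas1* lay between 7.34 and 8.17, *Ihh* and *Gli1* below −3.5, and the points of *Hhip* split by library number and not by population.

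*Ihh* encodes the ligand of the growth plate. Its log2 signal was −6.13 and −5.01 in reporter+ libraries 2 and 3 and −6.03 and −5.01 in reporter- libraries 2 and 3. Both libraries numbered 2 were lower than both libraries numbered 3, and the populations overlapped. These values lay between percentiles 5.08 and 9.39 of their libraries, near the bottom of the listed values. The difference between populations was −0.05 (SE 0.82, 95% interval −2.23 to 2.13). Within the numbers it was −0.10 and −0.00586.

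*Ptch1*, the ligand receptor and a target gene of the pathway, had the steadiest values of the 9. Its log2 signal was 0.91 and 0.95 in reporter+ libraries 2 and 3 and 0.88 and 0.76 in reporter- libraries 2 and 3. The populations did not overlap, but the gap between the lowest reporter+ and the highest reporter- value was narrow. The difference was 0.11 (SE 0.23, 95% interval −0.50 to 0.73), and it was 0.03 within number 2 and 0.19 within number 3. *Ptch1* ranked between percentiles 40.9 and 43.1. The gene spans chromosome 13 from 63508328 to 63573598 in GENCODE M21 on GRCm38.

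*Gas1* encodes a membrane-anchored co-receptor that helps present ligand to Patched. Its log2 signal was 8.17 and 7.34 in reporter+ libraries 2 and 3 and 7.90 and 7.41 in reporter- libraries 2 and 3. Its signal lay between percentiles 99.0 and 99.5, near the top of the listed values. Libraries numbered 2 were higher than libraries numbered 3 in both populations, by 0.84 in reporter+ and 0.49 in reporter- cells, and the populations overlapped. The difference between populations was 0.10 (SE 0.38, 95% interval −0.90 to 1.10), with 0.27 within number 2 and −0.07 within number 3. *Gas1* lies on chromosome 13 from 60174405 to 60177365, where the noncoding gene *Gm48488* on the opposite strand had no value.

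*Hhip* encodes a membrane protein that binds Hedgehog ligands and limits their reach. Its log2 signal was −5.89 and 0.08 in reporter+ libraries 2 and 3 and −4.89 and −0.28 in reporter- libraries 2 and 3. It was far higher in both libraries numbered 3 than in both numbered 2, by 5.97 in reporter+ and 4.61 in reporter- cells, whereas the populations overlapped. In percentiles, it stood at 5.89 and 9.87 in the libraries numbered 2 and at 34.6 and 31.9 in those numbered 3. The difference between populations was −0.32 with an SE of 2.56 and a 95% interval of −7.15 to 6.50, so that a large difference in either direction could not have been detected. Within number 2 it was −1.003 and within number 3 it was 0.36.

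*Smo*, the transducer that Patched restrains, and *Sufu*, the cytoplasmic inhibitor of GLI factors, differed little between the populations. *Smo* had log2 signals of 4.33 and 4.75 in reporter+ libraries 2 and 3 and of 4.37 and 4.80 in reporter- libraries 2 and 3. It was higher in libraries numbered 3, by 0.42 in each population. The difference between populations was −0.04 within each number and overall (SE 0.24, 95% interval −0.68 to 0.59). *Sufu* had log2 signals of 1.63 and 2.28 in reporter+ and of 1.78 and 2.32 in reporter- libraries 2 and 3. It too was higher in libraries numbered 3, by 0.65 and 0.54. Its population difference was −0.10 (SE 0.33, 95% interval −0.98 to 0.79), with −0.15 and −0.04 within the numbers.

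*Gli1* is a transcriptional activator that is induced by the pathway and serves as its usual readout. Its log2 signal was −5.80 and −4.49 in reporter+ libraries 2 and 3 and −3.54 and −4.26 in reporter- libraries 2 and 3. Both reporter+ values were below both reporter- values, although reporter+ library 3 and reporter- library 3 lay close together. The means were −5.15 ± 0.93 (SD, n = 2) and −3.90 ± 0.51 (SD, n = 2). The difference of −1.25 (SE 0.77, 95% interval −3.29 to 0.80) had an unadjusted p of 0.172 with limma and an adjusted p of 1. With a pseudocount of 1 added to the linear signal it was −0.0520. Of the 14415 genes, which span all signal levels, 366 differed at least as much in size, *Gli1* included. Genes of a similarly low signal were not set apart in this count. It rested mainly on the libraries numbered 2 (−2.26, compared with −0.23 within number 3) and was −0.59 without reporter+ library 2 and −1.90 without reporter+ library 3. *Gli1* ranked between percentiles 6.20 and 15.6, near the low end of the listed values. *Gli1* (chromosome 10, 127329882 to 127341974, minus strand) overlaps *Arhgap9* on the opposite strand only from 127329882 to 127329943. *Arhgap9* was higher in reporter+ cells by 0.68 and 0.55 within the numbers (SE 0.67), with low signals (−3.99 to −2.44) and overlapping populations. The antisense gene *Gm47200* (127332391 to 127370406) covers more of *Gli1* and had no value. Whether counting used the strand is not stated, so reads in these overlaps cannot be assigned with certainty.

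*Gli2*, which carries most of the activator function, and *Gli3*, which acts largely as a repressor, gave opposite patterns of spread. *Gli2* had log2 signals of −2.63 and 0.09 in reporter+ libraries 2 and 3 and of −1.86 and −0.60 in reporter- libraries 2 and 3. Libraries numbered 3 were higher in both populations, by 2.72 and 1.26, and the populations overlapped. The population difference of *Gli2* was −0.04 (SE 1.07, 95% interval −2.88 to 2.80), made up of −0.77 within number 2 and 0.69 within number 3. *Gli3* had log2 signals of 2.62 and 2.25 in reporter+ and of 2.54 and 2.61 in reporter- libraries 2 and 3. Its values spanned only a narrow range, at percentiles 62.2 to 68.6. The difference of *Gli3* was −0.14 (SE 0.20, 95% interval −0.67 to 0.39), with 0.08 and −0.36 within the numbers.

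**Figure D2:**
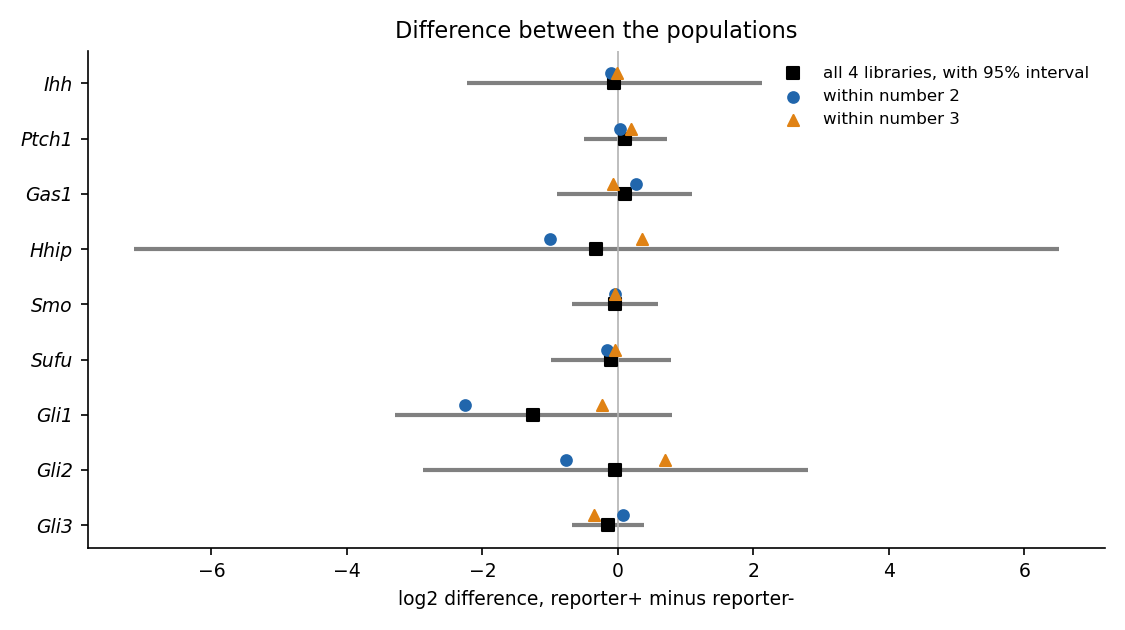
Log2 difference between reporter+ and reporter- cells (horizontal axis) for each Hedgehog gene. Black squares are the means over all 4 libraries with the 95% interval from limma as a bar, blue circles the difference within number 2 and orange triangles that within number 3. Every interval includes 0, and the bars of *Hhip* (−7.15 to 6.50) and *Gli1* (−3.29 to 0.80) were wider than that of *Gli3* (−0.67 to 0.39).

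The sign of the difference was the same within both numbers for 5 members. *Ptch1* was higher in reporter+ cells within both, a pattern shared by 22.1% of all genes. *Ihh*, *Smo*, *Sufu* and *Gli1* were lower within both, a pattern of 24.8% of all genes, and for *Ihh*, *Smo* and *Sufu* these differences lay between −0.15 and −0.00586. For *Gas1*, *Hhip*, *Gli2* and *Gli3* the sign differed between the numbers. Libraries 3 and 2 differed by more than 1 in the same direction in both populations for 3 members, *Ihh*, *Hhip* and *Gli2*, all of them higher in library 3, beside 9.71% of all genes. Averaged over the populations, the difference was 5.29 for *Hhip*, and 9 of the 14415 genes, *Hhip* included, differed at least as much in size. It was 1.99 for *Gli2*, which 630 genes (4.37%) reached or passed, and 1.07 for *Ihh*. *Gli1* went in opposite directions, by 1.31 in reporter+ and by −0.72 in reporter- cells. What the numbers 2 and 3 stand for is not given in the labels, so these differences were not tested.

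**Figure D3:**
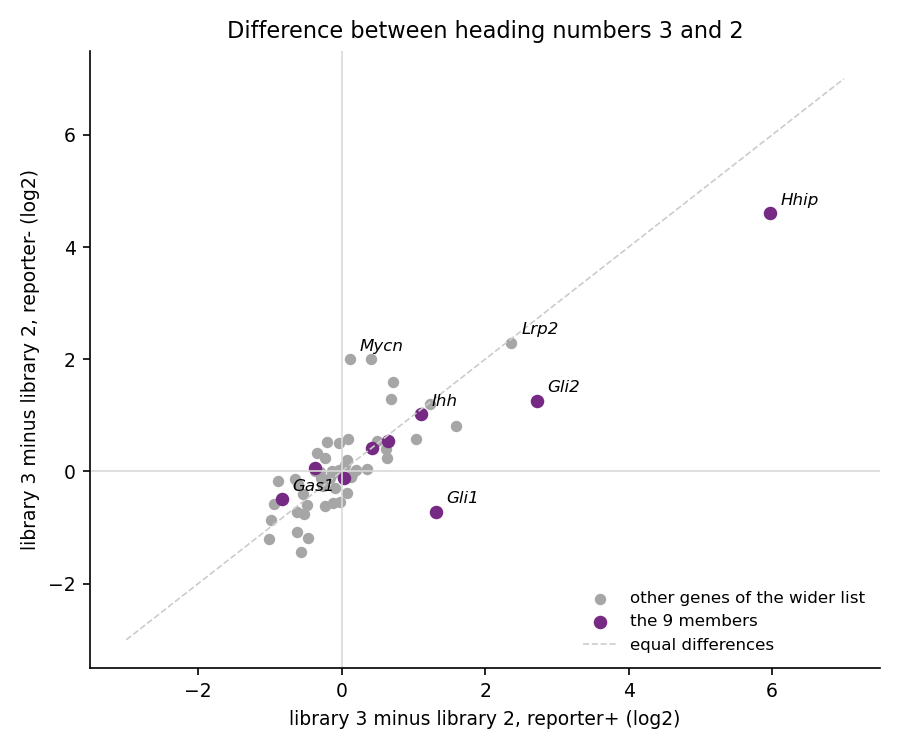
Log2 difference between library 3 and library 2 in reporter+ (horizontal axis) and reporter- cells (vertical axis) for genes of the wider Hedgehog list, members in purple. The dashed line marks equal differences. *Hhip* lies far from the other genes at 5.97 and 4.61, and *Gli1* lies off the line at 1.31 and −0.72.

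Marker genes that moved with the library number stand beside these values. Of 5 chondrocyte markers with values in all libraries, 3 were lower by more than 1 in library 3 of both populations (median over the list −1.55), among them *Col2a1* (2.86 and −1.33 in reporter+, 3.32 and 1.23 in reporter- libraries 2 and 3). *Acan*, the cartilage proteoglycan, was −1.09 and −4.91 in reporter+ and −1.62 and −4.89 in reporter- libraries 2 and 3. In 4 other lists, 1 marker each was higher by more than 1 in library 3 of both populations. These were *Postn* of the periosteal stromal list (3.17 in reporter+ and 2.89 in reporter- cells), *Acta2* of smooth muscle (2.36 and 1.13), *Dmp1* of osteoblasts (2.35 and 4.23) and *Tek* of endothelium (3.05 and 3.60). *Dmp1* had low log2 signals, between −5.43 and −1.19. Other markers of each list were lower in library 3 on average, among them *Prrx1* (−0.54), *Des* (−0.76), *Spp1* (−0.66) and *Vwf* (−0.73). The lists' medians between the numbers were −0.15 for periosteal stromal, 0.67 for smooth muscle, 0.68 for macrophage, 0.38 for osteoblast, 0.38 for endothelial and 0.28 for proliferation markers. The part of these cell types in the values of *Hhip* and *Gli2* was not tested.

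The pathway was then described on a wider list of 59 genes in 7 roles, the 9 members included. Of these, 58 were listed in some library and 57 in all 4, while *Shh*, the ligand of limb and neural tube patterning, had no signal in any library. The median difference over the 57 genes was −0.06, with 17 means higher and 40 lower in reporter+ cells. By comparison, 7076 of all genes were higher and 7339 lower. The split of the list moved when 1 library was left out, which also unbalances the library numbers. Without reporter+ library 3, the median of the list was −0.00103 and its signs were nearly even. Within number 2 the median of the list was −0.04, and within number 3 it was −0.05. Of the 57 genes, 22 were lower in reporter+ cells within both numbers, beside 24.8% of all genes. Another 6 were higher within both, beside 22.1%. With limma and no block, 0 genes of the list passed after adjustment. At an unadjusted p under 0.05 there were 2, both lower in reporter+ cells, beside 0.909% of all genes. The reporter+ libraries lay both below the reporter- libraries for 12 genes of the list, beside 8.10% of all genes, and both above for 2 genes, beside 7.59%.

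The log2 signal of *Dhh*, the ligand best known from testis and nerve sheath, was −5.42 and −5.89 in reporter+ and −3.70 and −4.89 in reporter- libraries 2 and 3, a difference of −1.36 (SE 0.75) at the low end of the range, or −0.0488 with a pseudocount of 1. Among 6 genes that process or release ligand, 5 had lower means in reporter+ cells (median −0.27). Without reporter+ library 3, *Disp1* (0.09), *Disp2* (0.29) and *Scube1* (0.20) turned above 0 and *Scube3* turned to −0.00103, while *Hhat* and *Scube2* stayed lower. *Disp1*, which releases lipid-modified ligand from cells, differed by −0.35 (SE 0.34) and *Hhat*, which attaches palmitate to ligand, by −0.34 (SE 0.34). *Scube2*, a secreted protein that helps release ligand, lay lower in both reporter+ libraries (−6.34 and −5.65 against −5.20 and −3.92 in reporter- libraries 2 and 3), a difference of −1.44, or −0.0426 with a pseudocount of 1. Receptors and ligand-binding proteins had a median difference of 0.07 over 6 genes. The co-receptor *Cdon* had log2 signals of 3.97 and 3.03 in reporter+ and of 3.48 and 2.89 in reporter- libraries 2 and 3, a difference of 0.31 (SE 0.40), and its relative *Boc* differed by 0.03.

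Genes that work downstream of the receptor followed. The 9 genes of *Smo* and its membrane partners had a median difference of −0.08 and ranged from −0.27 for *Evc2* to 0.34 for *Efcab7*, both of the ciliary complex that relays the Smoothened signal. The 14 GLI factors and cytoplasmic regulators had a median of −0.04 and ranged from −1.25 for *Gli1* to 0.13 for *Cul3*, with −0.19 for *Kif7*, the kinesin that organizes the tip of the cilium, and −0.15 for *Prkaca*, the catalytic subunit of protein kinase A. All 12 genes of the primary cilium had a value in every library. Their differences ranged from −0.17 for *Ofd1*, a protein of the ciliary base, to 0.19 for *Dync2h1*, the motor of retrograde transport, with a median of −0.05. In these 3 groups, 0 of the genes had an unadjusted p under 0.05, and each adjusted p was 1 with limma.

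The differences of the genes named from these roles moved when 1 library was left out. *Disp1* turned to 0.09 without reporter+ library 3 and was −0.80 without reporter+ library 2. *Hhat* kept its sign, between −0.61 without reporter- library 2 and −0.07 without reporter- library 3. *Scube2* was −2.08 and −0.79 without reporter- libraries 2 and 3, and *Dhh* was −0.76 and −1.95. Among the co-receptors, *Cdon* turned to −0.16 without reporter+ library 2 and *Boc* to −0.22 without reporter- library 2. *Efcab7* turned to −0.20 without reporter- library 3 and was 0.89 without reporter- library 2. *Kif7* turned to 0.10 without reporter- library 3, and *Dync2h1* to −0.05 without reporter+ library 2 and to −0.11 without reporter- library 3. *Cul3* turned to −0.14 without reporter- library 3 and was 0.40 without reporter- library 2. The signs of *Evc2* (−0.39 to −0.15), *Prkaca* (−0.26 to −0.05) and *Ofd1* (−0.33 to −0.02) held whichever library was left out.

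**Figure D4:**
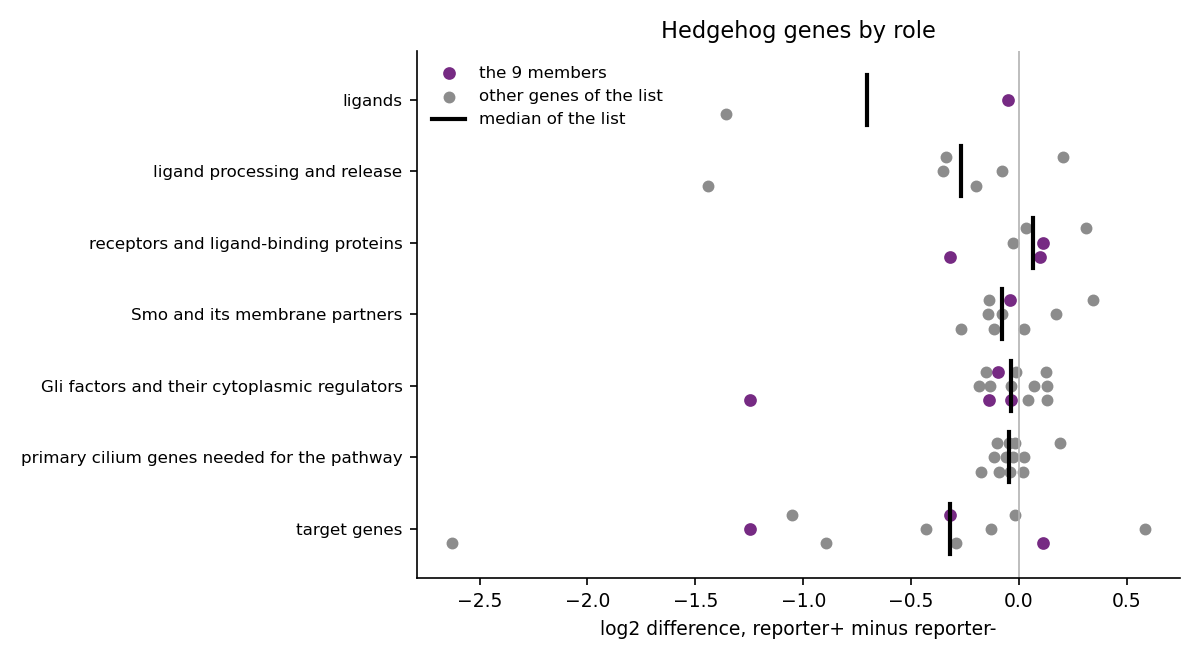
Log2 difference between reporter+ and reporter- cells (horizontal axis) for genes of the wider list with a value in all 4 libraries, by role. Purple points are the 9 members, gray points the other genes, and black bars the median of each list; *Gli1*, *Ptch1* and *Hhip* appear under 2 roles. Cilium genes stay between −0.17 and 0.19, whereas target genes spread from −2.63 (*Mycn*) to 0.58 (*Foxf2*). The mean log2 signals were 0.60 to 3.47 for cilium genes and −5.47 to 5.28 for target genes.

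Target genes spread more widely, at mean log2 signals from −5.47 to 5.28, beside 0.60 to 3.47 for cilium genes. Of 11 with a value in all libraries, 9 had lower and 2 had higher means in reporter+ cells, with a median of −0.32. Without a block, 0 had an adjusted p under 0.05. The median was the value of *Hhip*, which was 0.0752 with a pseudocount of 1. Without reporter+ library 2, *Hhip* (2.66), *Foxf1* (0.37), *Foxl1* (0.39), *Bcl2* (0.32) and *Nkx3-2* (0.34) turned above 0. *Gli1*, *Mycn*, *Ccnd1* and *Pthlh* then stayed lower in reporter+ cells, and *Ptch1* and *Foxf2* higher. *Ccnd1*, which encodes cyclin D1 and responds to many growth signals besides Hedgehog, had log2 signals of 4.95 and 4.72 in reporter+ and of 6.03 and 5.43 in reporter- libraries 2 and 3. Both reporter+ values were below both reporter- values. Its difference was −0.90 (SE 0.25, 95% interval −1.57 to −0.22), with an unadjusted p of 0.0203 and an adjusted p of 1 with limma, and with −1.09 and −0.71 within the numbers. It was −0.59 without reporter- library 2 and −0.87 with a pseudocount of 1. With the library number as a block, which the labels do not give, *Ccnd1* passed the threshold, as stated under the dependence on processing. *Mycn*, a growth-promoting transcription factor, had log2 signals of −6.84 and −6.73 in reporter+ and of −5.16 and −3.15 in reporter- libraries 2 and 3. Its difference of −2.63 (SE 0.93) had an unadjusted p of 0.0416 and an adjusted p of 1 with limma, at levels near the bottom of the range. It was −1.63 without reporter- library 3 and −0.0836 with a pseudocount of 1.

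Other targets are given by their values. *Pthlh*, the gene of parathyroid hormone-related protein, which restrains chondrocyte maturation in a loop with *Ihh*, had log2 signals of −2.79 and −2.16 in reporter+ and of −1.54 and −1.31 in reporter- libraries 2 and 3. The populations of *Pthlh* did not overlap, and the difference was −1.05 (SE 0.47), or −0.21 with a pseudocount of 1. *Foxf2*, a mesenchymal forkhead factor, had log2 signals of 0.39 and 0.30 in reporter+ and of −0.09 and −0.38 in reporter- libraries 2 and 3. *Foxf1* and *Foxl1* overlapped between populations, with differences of −0.43 and −0.13 that turned to 0.37 and 0.39 without reporter+ library 2, and for *Foxl1* to 0.16 without reporter- library 3. In the target list, 4 genes lay lower in each reporter+ library than in each reporter- library, beside 8.10% of all genes, and 2 lay higher, beside 7.59%.

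**Figure D5:**
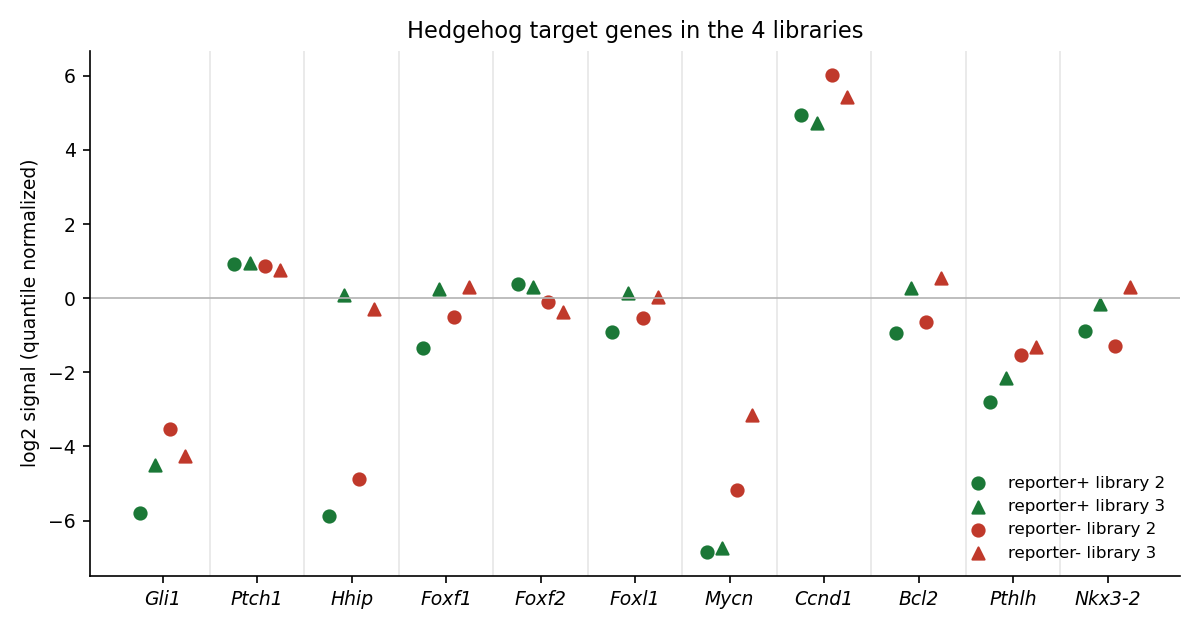
Log2 signal (vertical axis, quantile normalized) of 11 target genes in each library, with reporter+ libraries in green, reporter- libraries in red, library 2 as circles and library 3 as triangles. *Ccnd1* lies at 4.72 to 4.95 in reporter+ and 5.43 to 6.03 in reporter- libraries, with no overlap.

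Proliferation markers were examined beside the target genes, since *Ccnd1* and *Mycn* take part in cell division. Their median difference over 10 genes was −0.20, with −0.86 within number 2 and 0.46 within number 3, whereas *Ccnd1* was lower in reporter+ cells within both. Their summed log2 signal was 3.65 and 4.36 in reporter+ and 4.38 and 3.91 in reporter- libraries 2 and 3. The smooth muscle markers that were lower in reporter+ cells had a summed log2 signal of 2.70 and 4.69, compared with 4.62 and 5.32 in reporter- libraries 2 and 3. The part of these cell types in the values of *Gli1* and *Ccnd1* was not tested.

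The genes whose profile over the 4 libraries was nearest to that of 2 members were also listed, by the Euclidean distance between log2 values centered on the mean of each gene. Nearest to *Gli1* were *Vmo1* (distance 0.13), *Gm7160* (0.31) and *Gm12536* (0.32), beside a median distance of 1.70 over all genes. *Vmo1* had log2 signals of −3.40 and −2.28 in reporter+ and of −1.25 and −1.96 in reporter- libraries 2 and 3. Nearest to *Gas1* were *Glul* (0.04), *Hivep3* (0.05) and *Ccdc191* (0.06), beside a median of 0.85. *Glul*, the gene of glutamine synthetase, had log2 signals of 5.67 and 4.82 in reporter+ and of 5.42 and 4.89 in reporter- libraries. With 4 libraries, many genes come close to any profile, and the distances are given as a description.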

How the data were processed

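Total RNA of 4 libraries was sequenced by the authors on an Illumina instrument (stranded, paired-end). The submitters' processing notes name bcl2fastq 2.17.1.14, Partek 7.0 and the build GRCm38.p6. The values were deposited by the authors as log2 signals after quantile normalization, with a blank for no signal. The lower quartile (−1.47), the median (1.48) and the extremes (−10.07 and 11.73) were the same in all libraries to within rounding. The linear unit, aligner, annotation and filters are not given in the sources used here, so the depth is unknown and no counting error is given. Values were listed for 15423 to 15605 genes per library.

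Columns were assigned to a population by their heading. The heading numbers 2 and 3 are not those of the sample titles (1 and 2), and the labels do not tie same-numbered libraries to a shared preparation, so the test has no block.

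Genes listed in every library (14415) went into a limma 3.58.1 fit under R 4.3.3 (eBayes with a trend, two-sided, no block, Benjamini-Hochberg adjustment, threshold 0.05). The script was tested on simulated data. With 2 libraries against 2, an exact two-sided permutation test of 1 gene cannot go below 0.333 and was not used. All members and any gene of the role lists could be named with their values. Of each role list, genes with an unadjusted p under 0.05 and otherwise the 2 with the largest difference at a mean log2 value of at least 0 were always named. Members and gene lists were chosen with earlier results of these data known. Gene positions are from GENCODE M21 (GRCm38). *Grk2* was found by its synonym in RefSeq. Summaries used Python 3.11.15 with pandas 2.3.3. The alternatives were a block, leaving out each library, no variance trend, other filters, another treatment of blanks, a pseudocount and median centering.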

Additional observations from a re-analysis of the deposited data

How the results depend on the processing

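Of 59 values of the 9 members under alternatives that kept all libraries, 57 kept their direction and none passed the threshold. The exceptions were *Hhip* (0.0752) and *Gli2* (0.0899) with a pseudocount of 1, both below 0 without it. Leaving out 1 library turned the direction of 13 of 36 values and unbalances the library numbers. The differences then ranged from −0.61 to 0.50 for *Ihh*, −0.32 to 0.52 for *Gas1*, −3.31 to 2.66 for *Hhip*, −0.26 to 0.17 for *Smo*, −0.43 to 0.23 for *Sufu*, −1.40 to 1.32 for *Gli2* and −0.32 to 0.0433 for *Gli3*, and kept their sign for *Gli1* (−1.90 to −0.59) and *Ptch1* (0.05 to 0.17). The median of the members ranged from −0.43 to 0.17 and was −0.000799 with a pseudocount. The median of the wider list ranged from −0.12 to −0.00103 with a library left out, and was −0.0689 without a filter on blanks or with blanks at the lowest value, −0.0432 for genes with a mean of at least 0 and −0.0408 with a pseudocount. With the library number as a replicate block, 29 of all genes had an adjusted p under 0.05 in place of 0, 0 of the members and 1 of the wider list, *Ccnd1* (adjusted p 0.0437 with limma, same difference). At an unadjusted p under 0.05 with limma there were 913 genes with the block and 131 without it. Deviations from the population means had a correlation of 0.681 across genes between same-numbered libraries. Without the block, the other alternatives called 0 genes, with 62 to 273 genes at an unadjusted p under 0.05. A pseudocount of 1 shrank the differences of genes with low signal, among them *Gli1* (−0.0520) and *Mycn* (−0.0836). The depth is unknown, and its part was not tested. The cause of these changes was not tested.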
